A study of Mus musculus with 11 samples.

Results

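The 5 control libraries of a series of 11 libraries from mouse colorectal organoids were described on their own, as a baseline of gene expression in unstimulated epithelium. They were chosen by their label as controls, and the 6 libraries given NAP enter no result below apart from 1 check of the sex label. Organoids are epithelial cultures in which stem cells of the gut lining, embedded in Matrigel, form closed, budding structures. Per the labels' protocols, these were grown in IntestiCult medium from fragments of colon taken from female C57BL/6J mice aged 6 to 8 weeks. The treated arm received 10 pM NAP for 48 h. For the controls, the labels state no treatment in one place and a PBS vehicle elsewhere. Every library has the batch label 1, and the controls are numbered as biological replicates 1 to 5. Whether each came from its own mouse or culture is not said in the labels, so the spread between them may be technical in part.

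RNA with poly(A) tails was sequenced, and levels are given as FPKM, the authors' fragment counts scaled to gene length and library size, as the mean ± SD over the 5 controls (n = 5) unless stated. Count totals were 16546263 to 21947414 per library, and the upper limit for a gene with 0 counts, taken as 3 counts, was 0.137 to 0.181 CPM depending on the library, for counting error only. Genes were termed abundant at a mean of 50 FPKM or more, moderate from 10 to under 50, low from 1 to under 10, trace when under 1 with at least 1 count, and undetected with 0 counts in all 5 libraries. The sum of FPKM differed between libraries, at 338819, 605226, 429979, 327272 and 598739 in controls 1 to 5, so TPM, which fixes that sum, shifted single libraries against FPKM by -0.45 to 0.44 on the log2 scale around the mean shift. The FPKM scale lay within -0.07 to 0.10 of the TMM scale of edgeR, again in log2 around the mean shift. Of 111 genes whose 5 values were examined in full, 101 had the same highest library by FPKM and TMM and 76 by all 3 scales. An order of libraries stated below is by FPKM and holds by TMM and TPM unless an exception is named, while a gene termed even is so by FPKM and TMM.

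A check of the sex label went against it. Female cells are expected to carry RNA of Xist, the noncoding RNA of the inactive X chromosome, and none from the Y chromosome. Xist had 0 to 6 counts per control library. Counts of the Y-linked genes were 534 to 1475 for Ddx3y, 311 to 935 for Kdm5d, 1494 to 2533 for Eif2s3y and 332 to 785 for Uty. In the 6 NAP libraries Xist had 0 to 5 counts and Ddx3y 684 to 2049. All 11 libraries thus carried Y-linked counts and little or no Xist, against a label of female.

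The lining of the colon is renewed from stem cells at the base of crypts, which respond to Wnt signals, divide, and give rise to absorptive colonocytes and to secretory cells. Colonocytes take up water, salt and short-chain fatty acids through transporters of their surface membranes. Goblet cells secrete the gel-forming mucin Muc2 and its partner proteins, enteroendocrine cells release peptide hormones, and tuft cells sense luminal signals. Identity along the gut is held by transcription factors such as Cdx2, Hnf4a and the posterior Hox genes.

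Markers of large-intestinal epithelium stood among the most abundant genes of the baseline, beside mitochondrial and ribosomal transcripts. Of 47131 genes in the table, 11975 reached a mean of 1 FPKM, 5152 reached 10 and 1408 reached 50, while 20690 were trace and 14466 (30.7%) were undetected. Among 22186 protein-coding genes, 10391 (46.8%) reached 1 FPKM and 3552 (16.0%) were undetected. The most abundant protein-coding transcript was the mitochondrial COX1, a cytochrome c oxidase subunit, at 13509 ± 7065 FPKM. Eef1a1, an elongation factor of translation, followed at 6417 ± 1473. Of the 30 most abundant protein-coding genes, 4 were mitochondrial, 8 encoded ribosomal proteins and 18 were others. These 30 genes held 16.4 ± 2.72% of the FPKM sum, and the top 1000 held 66.4 ± 6.27%.

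Beside the housekeeping transcripts, the top 30 held markers of intestinal epithelium. They were Lypd8 (3160.3 ± 2854 FPKM), a glycoprotein that keeps bacteria off the colonic surface, the simple keratins Krt8 (2449 ± 869) and Krt19 (2202 ± 609), the water channel Aqp8 (2063 ± 2286), the lectin Lgals4 (1738 ± 895) and the carbonic anhydrase Car1 (1502 ± 1252). The ferritin subunits Ftl1 (2731 ± 1443) and Fth1 (1787 ± 1614), which store iron, the glycolytic enzymes Aldoa (1743 ± 1036) and Eno1 (1505 ± 715), and Tpt1 (1789 ± 564) stood among them too. The peptidoglycan recognition protein Pglyrp1, a secreted antibacterial protein, was at 1483 ± 778. Sprr2a3, a small proline-rich protein of the barrier, was at 1504 ± 1329.6, and reads of its near-identical neighbours may be split between them. Uncharacterised genes ranked high as well: 1810065E05Rik was at 2319.6 ± 2675 and the predicted LOC118568312 at 3016 ± 1350.2. The remaining members were ND1 (3381), CYTB (2579.7) and ND6 (2410.1) of the mitochondrial chromosome, Rplp1 (2792), Rplp0 (2249.5), Rpl41 (2055), Rps26 (2003), Rpl13 (1810.3), Rpl7 (1549.8), Rps14 (1523) and Rps18 (1512) of the ribosome, Eef2 (1678) and the cytochrome oxidase subunit Cox6a1 (1835). ND6 overlaps ND5 on the opposite strand, and whether the counting used strand is not stated, so their reads cannot be told apart. The most abundant long noncoding RNAs were AY036118 (2072 ± 898 FPKM), Gm5485 (357 ± 306), Abhd11os (196 ± 149.7, which overlaps Abhd11) and the snoRNA host Gas5 (158 ± 32.8). AY036118 lies beside LOC118568312 on chromosome 17. Both were lowest in control 3, and highest in control 2 by FPKM and in control 4 by TPM. Whether they share a source of reads was not tested, so both values are uncertain.

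**Figure D1:**
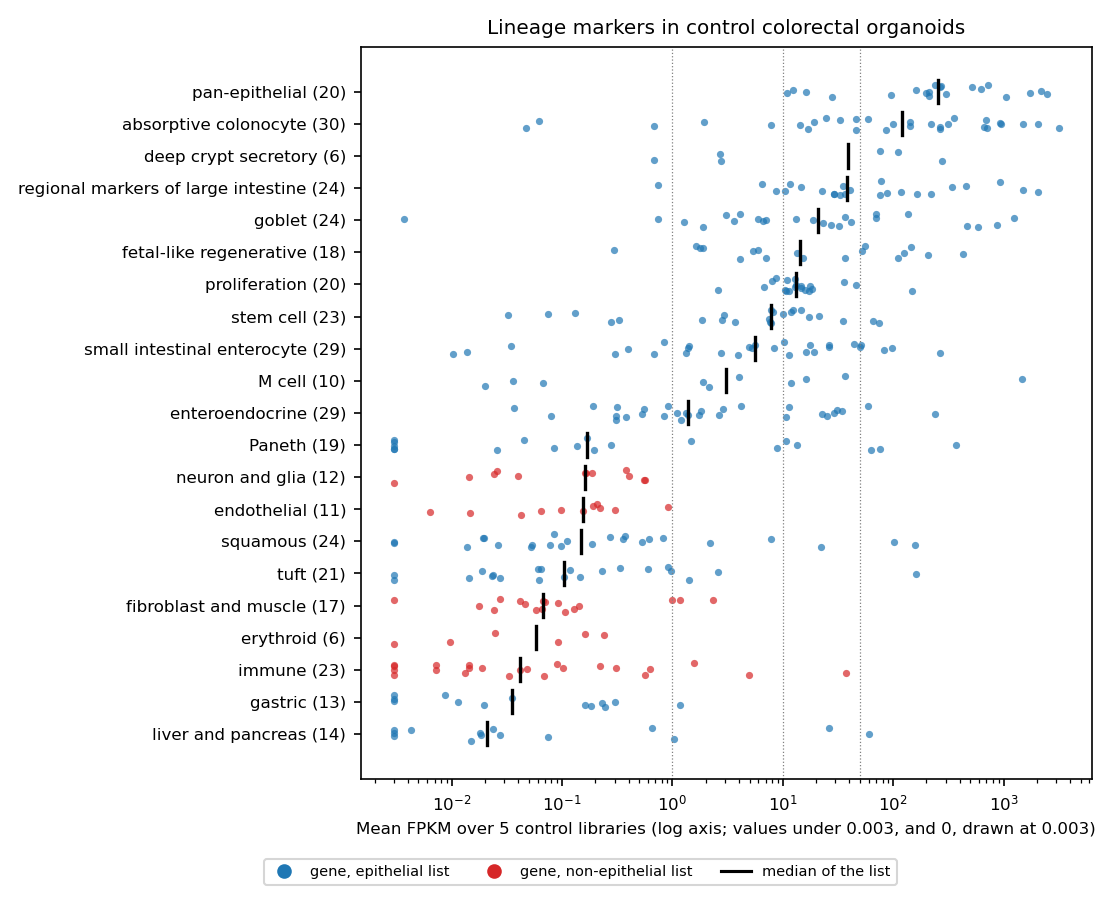
Mean FPKM over the 5 control libraries (x axis, log scale) of each gene in 21 marker lists (y axis, number of genes found in brackets), with epithelial lists in blue, non-epithelial lists in red and the median of each list as a black bar. The pan-epithelial and absorptive colonocyte lists had medians of 252 and 121 FPKM, and no endothelial, neuronal or erythroid marker reached 1 FPKM (dotted lines at 1, 10 and 50).

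All 20 general epithelial markers were at 10 FPKM or more, with a median of 252 FPKM beside 0.569 over all protein-coding genes. Epcam, the adhesion molecule that defines epithelial cells, read 649, 1382, 1161, 591 and 1476 FPKM in controls 1 to 5. Cdh1, the cadherin of adherens junctions, read 223, 159, 220.4, 226 and 167. Both were thus high in every library. The claudins Cldn3 (723 ± 425), Cldn7 (630.1 ± 264), Cldn4 (302 ± 65.5) and Cldn15 (272 ± 134), which form tight junctions, were abundant, whereas the pore-forming Cldn2 was at 10.95 ± 10.05. Villin (Vil1, 266 ± 110.3) and ezrin (Ezr, 239 ± 40.1), which build microvilli, were abundant as well. Of 54 keratin genes, 5 were abundant and all are keratins of simple epithelia: Krt8, Krt19, Krt18 (521 ± 97.6), Krt20 (210.1 ± 172) and Krt7 (159.5 ± 42.8). Krt20, which marks differentiated cells, read 27.7, 377, 196, 56.1 and 394 in controls 1 to 5 and was the least even of the 5. Undetected keratin genes numbered 8, namely Krt9, Krt33b, Krt34, Krt71, Krt73, Krt75, Krt76 and Krt81. By TPM, Krt8 and Krt19 were closer between libraries, with coefficients of variation (SD over mean) of 0.0875 and 0.0548 against 0.355 and 0.277 by FPKM.

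The promoters of the 4 most abundant lineage markers for which the RefSeq table held a sequence are shown because these genes lead the baseline. Each runs from 250 bases before to 50 bases after the transcription start on GRCm38.p6, 5′ to 3′. They were matched to the counts by gene identifier, since the counts rest on GRCm39. Capitals mark matches on either strand to 4 motif types: the TATA box (TATAAA), a CDX-type motif (TTTATTG or TTTATGG), an HNF4-type motif (CAAAGTCCA or CAAAGGTCA) and a KLF-type motif (CCCCACCC).
Lypd8 (chr11:58378782-58379081, plus strand): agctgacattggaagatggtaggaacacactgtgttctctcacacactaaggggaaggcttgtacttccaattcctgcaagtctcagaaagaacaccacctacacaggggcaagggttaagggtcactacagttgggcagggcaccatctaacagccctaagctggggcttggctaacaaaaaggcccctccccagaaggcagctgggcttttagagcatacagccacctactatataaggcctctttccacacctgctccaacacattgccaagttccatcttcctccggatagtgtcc
Krt8 (chr15:102004293-102004592, minus strand): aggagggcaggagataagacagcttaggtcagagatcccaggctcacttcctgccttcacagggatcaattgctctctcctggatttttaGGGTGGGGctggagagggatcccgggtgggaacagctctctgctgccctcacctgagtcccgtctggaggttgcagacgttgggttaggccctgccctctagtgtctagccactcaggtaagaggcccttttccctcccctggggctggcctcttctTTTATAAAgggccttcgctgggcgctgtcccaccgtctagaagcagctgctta
Aqp8 (chr7:123462044-123462343, plus strand): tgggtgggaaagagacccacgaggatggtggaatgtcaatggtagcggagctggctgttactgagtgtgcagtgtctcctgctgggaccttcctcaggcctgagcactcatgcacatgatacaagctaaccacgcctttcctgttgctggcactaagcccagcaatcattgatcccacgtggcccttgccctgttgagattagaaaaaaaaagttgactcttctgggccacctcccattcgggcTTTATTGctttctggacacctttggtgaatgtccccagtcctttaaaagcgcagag
Lgals4 (chr7:28833544-28833843, plus strand): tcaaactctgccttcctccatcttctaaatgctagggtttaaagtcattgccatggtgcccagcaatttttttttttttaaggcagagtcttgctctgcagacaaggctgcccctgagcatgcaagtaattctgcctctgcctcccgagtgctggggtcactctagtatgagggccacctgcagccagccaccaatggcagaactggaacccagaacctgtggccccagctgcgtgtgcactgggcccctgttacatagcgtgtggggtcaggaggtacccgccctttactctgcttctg
The Krt8 promoter held a KLF-type match on the minus strand and, next to the start, a pair of overlapping TATA matches, 1 on each strand. Aqp8 had 1 CDX-type match just before its start. The windows of Lypd8, for which the table lists 2 starts with the first shown, and of Lgals4 held none of these exact strings. Variants of the motifs were not searched, so a window without a match may still hold one. Such matches describe the sequence and are not evidence of binding. Over 17414 promoters of protein-coding genes, the TATA motif was found in 13.3%, the CDX-type in 6.36%, the HNF4-type in 0.833% and the KLF-type in 10.9%. The TATA motif was held by 10.8% of 1074 promoters of abundant genes and 6.52% of 2898 of moderate genes. Shares were 6.65% for low, 14.8% for trace and 28.6% for 2814 promoters of undetected genes. In the same order of levels, the KLF-type motif was held by 12.5, 11.9, 12.1, 11.9 and 4.83%. The CDX-type was held by 5.31, 3.83, 4.20, 6.70 and 12.05%. Base composition differed too: median GC content was 60.3% in promoters of abundant genes, 61.3% for moderate, 61.3% for low, 54.00% for trace and 43.00% for undetected genes. It thus did not rise with the level among genes at 1 FPKM or more and was lower below that. Its part in the motif shares was not tested.

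Absorptive colonocyte markers were the most abundant cell type list after the general epithelial one, with 27 of 30 genes at 1 FPKM or more, 18 of them abundant, and a median of 121 FPKM. Lypd8 read 721, 6404, 1968, 652 and 6056 FPKM in controls 1 to 5. Aqp8, the water channel of surface colonocytes, read 230.4, 4559, 867, 119.8 and 4537. Controls 2 and 5 were the highest libraries for both genes and controls 1 and 4 the lowest, with control 3 between them. The same order held for Car1 (491, 3149.9, 989, 376 and 2504), for Guca2a (252, 1258, 447, 185 and 1171), the precursor of the gut peptide guanylin, and for the cytochrome Cyp2c55 (371, 1556, 709, 498 and 1552). Saa1, an acute-phase protein that gut epithelium also makes, spanned 10.7 to 1799, and its mean of 708 ± 915 was 435 ± 788 (n = 4) without control 5. Car4, a membrane carbonic anhydrase, spanned 6.62 to 201 and averaged 85.9 ± 103, or 57.2 ± 93.7 (n = 4) without control 2. Over the 27 expressed markers, 14 were highest in control 2 and 11 in control 5, while 14 were lowest in control 1 and 13 in control 4. On the TPM scale the highest were 11 and 10, and the lowest 12 and 11. A background was taken at a higher threshold than for the markers, 10 FPKM. Of its 4896 protein-coding genes, control 2 was the highest library for 1511 and control 5 for 1347 by FPKM. Control 1 was the lowest for 999 of them and control 4 for 1989. By TPM these were 568, 589, 450 and 931. Muc3 (59.7 ± 4.78) and Ceacam1 (221 ± 22.4) were even across all 5 libraries, at 54.5 to 66.3 and 186 to 245, but by TPM the coefficient of variation of Muc3 was 0.299. Car2, another carbonic anhydrase, averaged 948 ± 431. In bulk RNA, fewer cells of a type and less RNA per cell cannot be told apart. Of the epithelial sodium channel subunits, Scnn1a was at 14.4 ± 8.47, with part of its reads possibly from the overlapping Ltbr, while Scnn1b and Scnn1g were at 0.0470 and 0.0623.

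**Figure D2:**
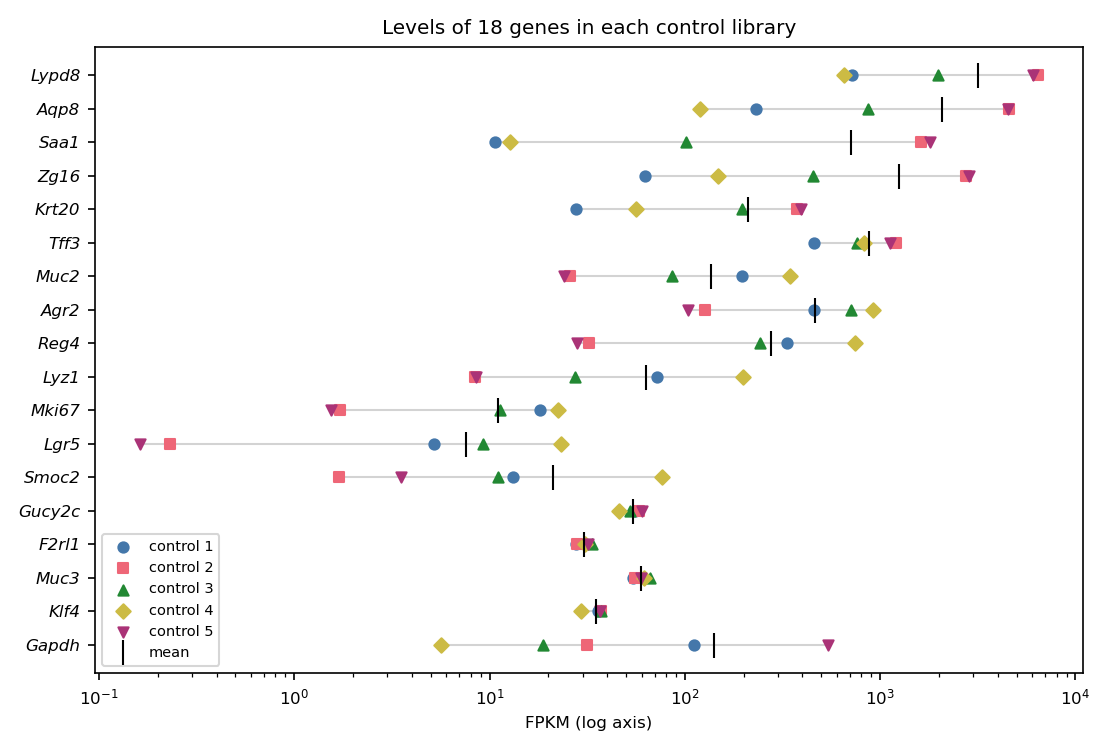
FPKM (x axis, log scale) of 18 genes in each of the 5 control libraries (symbols and colours), with the mean as a black tick. Lypd8, Aqp8, Saa1 and Zg16 were highest in controls 2 and 5, Muc2, Reg4, Lyz1, Mki67 and Lgr5 were highest in control 4, and Gucy2c, F2rl1, Muc3 and Klf4 were nearly even on this FPKM scale.

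Most stem cell markers were low to moderate, and most were highest in control 4. Of 23 such genes, 18 reached 1 FPKM and 2 were abundant, with a median of 7.81 FPKM. Lgr5, the R-spondin receptor that defines crypt stem cells, read 5.21, 0.231, 9.204, 23.1 and 0.162 FPKM in controls 1 to 5. Ascl2, the Wnt-responsive factor of these cells, read 4.55, 0.507, 3.06, 5.91 and 0.775. Both were highest in control 4 and under 1 FPKM in controls 2 and 5. The mean of Lgr5 was 7.59 ± 9.48, or 3.702 ± 4.36 (n = 4) without control 4. Axin2, a direct Wnt target, read 12.7, 1.81, 7.59, 16.98 and 1.56, and Smoc2 read 13.1, 1.69, 10.99, 76.3 and 3.51. Slc12a2 (74.1 ± 62.9), the chloride importer of crypt cells, Prom1 (65.7 ± 6.68), Hopx (35.4 ± 14.1) and Rnf43 (17.2 ± 6.43) were the other most abundant members. Prom1, also known as CD133, was even at 58.6 to 73.5. Olfm4, a stem cell marker of the small intestine, averaged 0.0321 FPKM and had counts in controls 1 and 4 only. Over the 18 expressed genes, 13 were highest in control 4 by FPKM and 15 by TPM, and 11 were lowest in control 5 on both of these scales. The background was taken at 10 FPKM or more, a higher threshold than for the markers. Of these 4896 protein-coding genes, control 4 was the highest for 862 by FPKM and 1823 by TPM. Control 5 was the lowest for 629 by FPKM and 1334 by TPM.

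All 20 proliferation genes were expressed at a mean of 1 FPKM or more, with a median of 13.1. Mki67, a marker of cycling cells, read 18.2, 1.71, 11.3, 22.3 and 1.54 FPKM in controls 1 to 5, and Top2a, which untangles replicated DNA, read 27.6, 3.84, 20.1, 36.9 and 3.15. Control 4 was the highest library for 19 of the 20 genes and control 5 the lowest for 16, on the FPKM, TMM and TPM scales alike. The exception was Pcna, the sliding clamp of DNA replication, which was the most abundant member at 149 ± 23.9 and spanned only 121 to 177. Ube2c (46.04 ± 28.1), Stmn1 (35.9 ± 27.1) and Hmgb2 (17.7 ± 12.1) came next with Top2a. As a background, control 4 was the highest library for 2966 of the 10391 expressed protein-coding genes by FPKM, for 2782 by TMM and for 4871 by TPM. The higher threshold of 10 FPKM left 4896 of them. Control 5 was the lowest for 629 of these by FPKM, 648 by TMM and 1334 by TPM.

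Goblet cell markers included some of the most abundant genes but did not share 1 order of libraries. Of 24 genes, 22 reached 1 FPKM, with 7 abundant and a median of 20.9. Muc2, the gel-forming mucin of colonic mucus, read 195, 25.8, 86.3, 345 and 24.05 FPKM in controls 1 to 5, with a mean of 135 ± 136, or 82.9 ± 80.4 (n = 4) without control 4. Agr2, a disulfide isomerase needed for mucin folding, read 460.1, 127, 708, 915 and 104, and the inhibitor Spink4 read 355, 198, 997, 1234 and 150.2. These 3 genes were highest in control 4 and lowest in control 5. The lectin Zg16, which binds bacteria in mucus, was instead highest in controls 5 and 2 at 62.5, 2751, 454, 148 and 2833, and so was the mucus protease Clca1 at 1.65, 11.8, 2.26, 5.801 and 13.8. Tff3, a trefoil peptide that aids mucosal repair, read 459.6, 1203, 760.3, 825 and 1118, highest in control 2 by FPKM and in control 4 by TPM. Fcgbp, a mucus protein that crosslinks with Muc2, averaged 70.1 ± 19.7, and Klk1 69.4 ± 32.8. The transcription factors of the lineage were likewise highest in control 4 and lowest in control 5: Spdef read 14.5, 4.28, 16.8, 27.3 and 2.805 and Atoh1 5.47, 3.34, 7.17, 14.5 and 2.62. Ccl6 averaged 22.9 ± 29.8, or 10.2 ± 10.1 (n = 4) without control 4. St6galnac1, which adds sialic acid to mucin glycans, had counts in control 1 only (0.00367 FPKM).

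Markers of deep crypt secretory cells, the colonic neighbours of stem cells, were highest in control 4 for all 5 expressed members of 6. Of 4896 protein-coding genes at the higher threshold of 10 FPKM, control 4 was the highest for 862 by FPKM and 1823 by TPM. Reg4, the lectin that defines deep crypt secretory cells, read 334, 32.3, 242, 745 and 27.9 FPKM in controls 1 to 5, with a mean of 276 ± 294, or 159 ± 154 (n = 4) without control 4. Mptx1, a mucosal pentraxin, averaged 75.4 ± 89.98, or 36.6 ± 27.2 (n = 4) without control 4. Cd177 was at 111 ± 70.8 and the receptor Kit, another defining marker, at 2.76 ± 2.82, beside the Notch ligands Dll4 (2.71 ± 1.19) and Dll1 (0.676 ± 0.666).

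Mucin genes split between a few high members and many near 0. Of 13 Muc genes, 6 reached 1 FPKM and 3 were abundant. Muc13, a mucin anchored in the apical membrane, was the highest at 175, 644, 461, 210.2 and 697 FPKM in controls 1 to 5, followed by Muc2. Muc3, a membrane mucin of the brush border, was even at 54.5, 55.7, 66.3, 61.9 and 59.9. Muc1 read 15.1, 1.58, 7.81, 16.4 and 1.702 with its highest value in control 4, and Muc4 averaged 3.19 ± 2.03 with its highest value in control 3. Muc3a, an entry separate from Muc3 in the table, averaged 8.297 ± 4.77, and reads may be split between the 2 similar genes. The gel-forming mucins of other organs were near 0, with Muc5ac at 0.00861, Muc5b at 0.00911 and Muc6 at 0.0350, and Muc21 was undetected. Among proteins that share the mucus layer, Lypd8, Zg16 and Tff3 led, followed by Pigr (615 ± 250.5), which carries antibodies across the epithelium, and Dmbt1 (338 ± 334). In this list 12 of 15 genes reached 1 FPKM, and Tff1, a gastric trefoil peptide, was undetected.

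Enteroendocrine genes ranged from abundant to trace. Of 29 genes found, 18 reached 1 FPKM, 2 of them abundant and 7 moderate, with a median of 1.38 FPKM. Pyy, the peptide that slows food intake and transit, read 81.3, 443, 186, 106 and 369 FPKM in controls 1 to 5. Insl5, a peptide made mainly in the distal colon, read 17.8, 18.3, 35.00, 52.00 and 22.9, and Gcg, the precursor of GLP-1, read 13.97, 46.8, 41.03, 36.9 and 34.8. The granule proteins Chga (30.7 ± 14.8) and Chgb (58.5 ± 22.8) were found in every library. Nts, the neurotensin precursor, was uneven at 1.04, 33.7, 1.71, 0.456 and 19.8, and its mean of 11.3 ± 14.9 was 5.74 ± 9.35 (n = 4) without control 2. Gip, a hormone of the proximal small intestine, had counts in control 5 only (0.0368), and Sst averaged 0.845 ± 1.38. No member was undetected, and the fate factor Neurog3 was at 1.796 ± 1.63.

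Tuft cells left little trace. The defining tuft genes Dclk1 and Pou2f3 averaged 0.0190 and 0.104 FPKM, and predicted genes overlap Dclk1 in the table. Trpm5, the cation channel of taste-like cells, was at 0.0614, and Il25 and Sucnr1 were undetected. Only 3 of 21 tuft genes reached 1 FPKM, namely Cd24a (159.6 ± 87.9), which other epithelial cells also express, Il17rb (2.58 ± 1.21) and Ltc4s (1.43 ± 0.929), and Hpgds (0.974 ± 0.387) and Ptgs1 (0.904 ± 1.11) lay just below. Without control 2, and likewise without control 3, 5 tuft genes reached 1 FPKM. For M cells, which sample antigens, the defining pair Gp2 (0.0356) and Spib (0.0200) was near 0, although 7 of 10 genes of that list reached 1 FPKM, led by Pglyrp1, Anxa5 (36.2 ± 13.2), Marcksl1 (16.1 ± 13.00), Tnfrsf11a (11.8 ± 3.102) and Ccl20 (4.01 ± 3.69).

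Paneth cells are the antimicrobial secretory cells of the small intestine and are not a normal part of the mouse colon. Of 19 genes in that list, 7 reached 1 FPKM. Lyz1, the lysozyme of Paneth cells, read 72.1, 8.403, 27.3, 198 and 8.56 FPKM in controls 1 to 5, with a mean of 62.9 ± 79.9, or 29.1 ± 29.99 (n = 4) without control 4. Among defensins, the other defining products, Defa24 averaged 1.49 ± 2.15, and Defa3, Defa5, Defa23, Defa32 and Defa35 were undetected. Ang4 (75.5 ± 34.1), which goblet cells of the colon also make, Nupr1 (372 ± 91.7), a general stress gene, Mmp7 (13.5 ± 10.9) and Itln1 (10.7 ± 9.203) were the other leading members. Lysozyme and defensin genes have near-identical copies, so their values are uncertain.

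Genes used as markers of small intestinal enterocytes were partly present. Of 29 genes, 22 reached 1 FPKM, with a median of 5.55 FPKM. Gsta1, a glutathione transferase, led at 56.1, 529, 187, 53.9 and 497 FPKM in controls 1 to 5, ahead of the fatty acid binding protein Fabp2 (35.1, 165, 79.9, 23.6 and 185), the phosphatase Alpi (81.8 ± 73.4) and the meprins Mep1b (50.6 ± 26.7) and Mep1a (49.6 ± 37.1). Members that define the jejunum and ileum were near 0. Fabp1 had counts in control 4 only (0.0346), lactase (Lct) averaged 0.0138, the fructose and glucose exporter Slc2a2 0.0103 and the ileal bile acid binding protein Fabp6 0.393. Sis, the sucrase-isomaltase of the brush border, averaged 4.93 ± 4.14. Of the 22 expressed genes, 13 were highest in control 5 by FPKM, TMM and TPM. The background was taken at a higher threshold, 10 FPKM. Of its 4896 protein-coding genes, those highest in control 5 numbered 1347, 1404 and 589 on these scales.

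Markers of the large intestine were widely expressed, with 23 of 24 genes found at 1 FPKM or more and a median of 38.5 FPKM. Aqp8, Cyp2c55 and the Sprr2a pair (Sprr2a2 at 455 ± 492) were among its abundant members. Retnlb was the only member under 1 FPKM (0.743 ± 0.755). Few markers of stomach, liver and pancreas reached 1 FPKM. Of 13 gastric genes, Ctse alone reached 1 FPKM (1.17 ± 0.584), Tff2 (0.305), Gkn3 (0.247), Cblif (0.229), Pgc (0.182) and Gkn1 (0.0114) were below it, and Gkn2, Sox2 and Tff1 were undetected. Of 14 liver and pancreas genes, Cela1 (60.8 ± 20.7), Ttr (25.9 ± 14.6) and Alb (1.04 ± 1.56) reached it, Pdx1 (0.652) and Afp (0.0740) did not, and Cpa1, Ins1 and Ins2 were undetected.

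Few squamous genes were expressed, while most fetal-like genes were. Of 24 squamous genes, 5 reached 1 FPKM: Sfn (158 ± 66.2), Sprr1a (101 ± 35.8), Lor, Krt4 (7.83 ± 13.7) and Krtdap (2.21 ± 3.07). The basal keratins Krt5 (0.0519) and Krt14 (0.375) and the basal cell factor Trp63 (0.0137) were near 0, and Sprr1b and Sprr3 were undetected. Lor, a protein of the cornified envelope, read 38.7, 0.881, 4.89, 64.9 and 0.546 FPKM in controls 1 to 5, and its mean of 21.99 ± 28.8 was 11.3 ± 18.4 (n = 4) without control 4. Krt4 read 32.1, 0.160, 1.59, 4.63 and 0.618, and its mean was 1.75 ± 2.01 (n = 4) without control 1. Genes of the fetal-like state that injured epithelium takes on were widespread, with 17 of 18 at 1 FPKM or more and a median of 14.3. Ly6a (Sca-1), which defines that state, read 296, 392, 617, 419.5 and 435, and Ly6c1 averaged 36.7 ± 11.9. Anxa1 (206 ± 63.5), Areg (146 ± 76.6), an EGF receptor ligand, Ly6e (124 ± 57.9) and Anxa3 (110.1 ± 21.3) were abundant. Clu, the marker of revival stem cells, averaged 15.1 ± 19.3, or 6.49 ± 0.621 (n = 4) without control 4. Reads of the Ly6 genes, which are close copies of each other, may be shared between them.

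Most markers of non-epithelial cells were near 0. None of 11 endothelial, 12 neuronal and glial or 6 erythroid genes reached 1 FPKM. The endothelial markers Pecam1 and Cdh5 were at 0.154 and 0.0987, the neuronal Tubb3 and Elavl3 at 0.401 and 0.549, and the globin Hbb-bs at 0.162. Undetected in these lists were Stmn2 and Hbb-bt. The highest other members were Vwf (0.305), Tek (0.220), Prox1 (0.207) and Plvap (0.190) of the endothelial list, Ret (0.569), Snap25 (0.380) and Elavl4 (0.185) of the neuronal list, and Hba-a1 (0.238), Alas2 (0.0923) and Hba-a2 (0.0247) of the erythroid list. Summed over the list, endothelial genes held 1.44, 2.77, 1.85, 2.06 and 2.95 FPKM in controls 1 to 5. Lyve1 (0.911 ± 0.497) came nearest and passed 1 FPKM when control 1 was left out. Of 17 fibroblast and muscle genes, Pdgfrb (2.32 ± 1.998) and Vim (1.18 ± 0.488) passed, Fn1 (0.982), Thy1 (0.143) and Acta2 (0.128) were below, the collagens Col1a1 and Col1a2 were at 0.0696 and 0.0927 and Tagln was undetected. Of 23 immune genes, Cd14 (37.4 ± 7.17), Cd68 (4.97 ± 2.47) and Lyz2 (1.55 ± 1.57) passed. S100a8 (0.625) and Cd3e (0.559) came next. The pan-leukocyte Ptprc was at 0.0420, and Cd3d, Cpa3 and S100a9 were among the undetected.

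**Figure D3:**
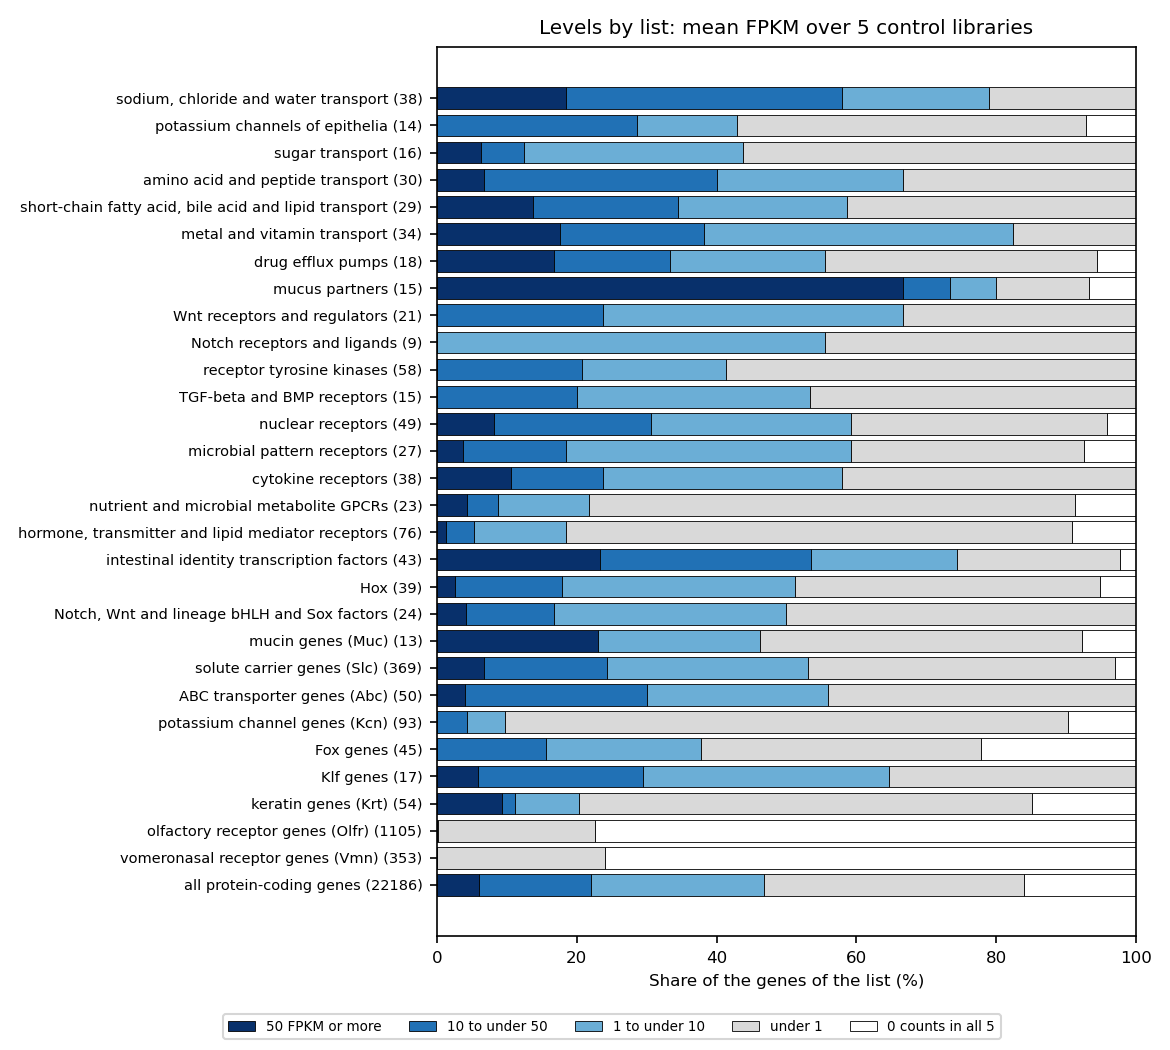
Share of the genes of each transporter, mucus, receptor and transcription factor list (y axis, number of genes in brackets) that fell into each level of mean FPKM over the 5 control libraries (x axis, percent). Mucus partners held the largest share of abundant genes among the lists shown. Most olfactory and vomeronasal receptor genes were undetected, and the bottom bar holds all 22186 protein-coding genes.

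Solute carriers, the largest family of membrane transporters, were expressed for 196 of 369 genes (53.1%), of which 25 were abundant, beside 46.8% of all protein-coding genes. The mitochondrial carriers Slc25a5 (903 ± 340.2 FPKM), which exchanges ADP for ATP, and Slc25a3 (676 ± 262), which imports phosphate, led the family. Undetected members numbered 11, among them the kidney carriers Slc22a6 and Slc22a8, the zinc carrier of pancreatic islets Slc30a8 and the glutamate carriers Slc1a6, Slc1a7 and Slc17a6. The others were Slc15a5, Slc7a12, Slc22a16, Slc22a28 and Slc45a2.

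Electrolyte and water transporters were widely expressed, with 30 of 38 genes at 1 FPKM or more. Atp1b1, a subunit of the sodium pump that sets the gradient other carriers use, averaged 659.7 ± 117 FPKM. Slc26a3, the chloride and bicarbonate exchanger of the colonic surface, read 303, 409, 100.1, 98.5 and 424 FPKM in controls 1 to 5, with control 1 well above controls 3 and 4. The apical sodium and proton exchangers Slc9a2 and Slc9a3 averaged 63.9 ± 36.4 and 17.04 ± 13.6, and Slc9a3 read 8.52, 33.2, 10.5, 2.95 and 30.03. The colonic proton and potassium pump Atp12a was at 123 ± 95.6. Chloride secretion in crypts uses Slc12a2 for entry and Cftr for exit, and they read 140.3, 14.8, 61.5, 139 and 14.9 for Slc12a2 and 6.49, 3.98, 7.42, 13.9 and 3.33 for Cftr. Slc12a2 was highest in controls 1 and 4, and Cftr in control 4. Of 11 aquaporins, Aqp8 was far above Aqp4 (22.4 ± 15.2), Aqp11 (13.4 ± 4.73) and Aqp1 (11.7 ± 14.1), and the other 7 were trace, including Aqp7 (0.463 ± 0.425) and Aqp3 (0.0716).

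Potassium channels were few, with 9 of 93 Kcn genes at 1 FPKM or more and 9 undetected: Kcna3, Kcna5, Kcna6, Kcna10, Kcnc4, Kcne1, Kcne1l, Kcng1 and Kcnmb1. Kcnq1, the basolateral channel that recycles potassium during secretion, read 27.5, 23.4, 25.1, 34.7 and 24.3 FPKM in controls 1 to 5. Kcnk1 (17.9 ± 5.704), Kcnn4 (11.9 ± 7.65), Kcnk5 (10.3 ± 4.55) and Kcnk6 (5.37 ± 5.23) followed. Kcne3, the subunit that keeps Kcnq1 open in the gut, was at 5.13 ± 4.84, and its cardiac relative Kcne1 was undetected.

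Among sugar carriers 2 exceeded 10 FPKM, and 7 of 16 reached 1 FPKM. Slc2a1 (GLUT1), the basal glucose carrier of growing cells, read 92.3, 148, 120.3, 70.5 and 137 FPKM in controls 1 to 5, and the sodium-coupled Slc5a1 (SGLT1) read 45.4, 55.1, 42.96, 27.7 and 49.96. Slc2a8 (4.51 ± 1.42), Slc5a9 (3.56 ± 0.637), Slc2a9 (3.23 ± 0.673) and the fructose carrier Slc2a5 (2.73 ± 2.204) were low. Amino acid carriers were led by Slc38a2 (56.8 ± 25.1), Slc1a5 (55.8 ± 12.5), Slc3a1 (42.6 ± 38.3), Slc6a14 (34.8 ± 22.8) and Slc1a4 (33.1 ± 7.35), and 20 of 30 reached 1 FPKM. The peptide carrier Slc15a1 (PEPT1) read 3.38, 19.5, 9.27, 6.57 and 17.7.

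Carriers of bacterial metabolites and lipids passed 1 FPKM for 17 of 29 genes. Slc16a1 (MCT1), which takes up butyrate, read 101, 96.5, 102, 55.99 and 103 FPKM in controls 1 to 5 and was thus even in 4 libraries and lower in control 4, while by TPM control 2 was the lowest. Bsg, the chaperone of MCT1 at the membrane, read 519, 1974, 1636, 377 and 2015, and Slc16a3 (MCT4), which overlaps Csnk1d, averaged 50.4 ± 28.6. The sodium-coupled Slc5a8 was low at 5.05 ± 1.83. Among bile acid carriers, the basolateral pair Slc51a (7.79 ± 9.304) and Slc51b (19.3 ± 19.3, overlapping Rasl12) and the ileal Slc10a2 (3.96 ± 2.003) were found. Scarb1 (25.4 ± 15.97), a lipoprotein receptor, and Abcg5 (21.2 ± 20.7, overlapping Abcg8) were moderate. Of 14 Slco genes 3 reached 1 FPKM, led by Slco4a1, which read 77.5, 7.44, 4.94, 7.13 and 7.53, so that its mean of 20.9 ± 31.6 was 6.76 ± 1.23 (n = 4) without control 1. Slco2a1 (3.14 ± 2.79) and Slco2b1 (1.03 ± 1.01) were the others, Slco5a1 (0.0823) and Slco1c1 (0.0778) were next, and Slco6c1 was undetected.

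Metal carriers included some of the most abundant transporters, and 28 of 34 metal and vitamin transporters reached 1 FPKM. Slc11a2 (DMT1), the apical iron importer, read 64.2, 476, 262, 36.7 and 486 FPKM in controls 1 to 5, and Slc40a1 (ferroportin), the iron exporter, read 34.4, 208, 138, 32.1 and 226. Both were highest in controls 2 and 5 and lowest in control 4. The zinc importer Slc39a4 (ZIP4) read 180.4, 353, 183, 89.4 and 381, whereas Slc39a1 (ZIP1) was even at 52.1 ± 3.58. Tfrc (89.7 ± 27.5), the transferrin receptor, and the copper importer Slc31a1 (65.6 ± 22.4) were abundant. The calcium channels Trpv6 (0.252) and Trpv5 (0.0385) were near 0. Of 50 ABC genes 28 reached 1 FPKM and none was undetected. Abcb1a, a P-glycoprotein gene that expels drugs, was the most abundant and even at 121, 143, 135, 118 and 152. Abcc3 (50.8 ± 13.6), Abcf1 (48.6 ± 4.53), Abcd3 (31.6 ± 4.58) and Abcb6 (28.1 ± 16.8) followed. Abcg2 (BCRP) averaged 24.2 ± 23.3 over 3.21 to 50.4, Slc22a18 55.7 ± 27.8 and Abcc1 16.8 ± 5.205.

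Wnt receptors were expressed at low to moderate levels, with 14 of 21 genes at 1 FPKM or more and none abundant. Fzd5, the main Frizzled receptor by level here, read 17.3, 5.87, 10.5, 14.2 and 5.81 FPKM in controls 1 to 5, and the co-receptor Lrp5 read 30.5, 6.26, 16.4, 25.2 and 6.77. Lgr4, the R-spondin receptor found beyond stem cells, read 28.4, 11.1, 24.2, 32.3 and 12.5. All 3 were highest in controls 1 and 4. Ryk (17.2 ± 2.02) and the receptor-degrading ligase Rnf43 completed the leading members. Of 9 Notch receptors and ligands, 5 reached 1 FPKM and none reached 10: Jag2 (4.05 ± 1.904), Notch1 (2.77 ± 2.11), Dll4, Jag1 (1.98 ± 1.08) and Notch2 (1.32 ± 1.104). Of 15 TGF-beta and BMP receptors 8 passed, led by Acvr1b (29.8 ± 4.88), Tgfbr2 (28.3 ± 7.09), Bmpr1a (11.7 ± 3.66), Rgmb (7.48 ± 5.795) and Acvr2a (4.46 ± 1.27).

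Of 58 receptor tyrosine kinases 24 reached 1 FPKM, none was abundant and none undetected. Erbb2, a co-receptor with no ligand of its own, read 38.7, 61.3, 53.3, 28.96 and 62.4 FPKM in controls 1 to 5, though Mien1 overlaps it. Erbb3, the neuregulin receptor, read 41.4, 46.3, 44.8, 32.9 and 53.6, and the ephrin receptor Epha2 32.97, 20.3, 28.3, 31.5 and 21.4. Egfr, the receptor of EGF, was much lower at 2.79, 2.36, 2.66, 4.01 and 2.64, and Erbb4 was at 0.00454. Ephb4 (22.9 ± 10.6) and Styk1 (18.6 ± 3.99) were the next most abundant, and receptors of mesenchymal and endothelial cells such as Pdgfra (0.0240) and Kdr (0.00638) were near 0.

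Nuclear receptors, the transcription factors that bind lipids and vitamins, were expressed for 29 of 49 genes. Hnf4a read 189.7, 248, 183, 128 and 266 FPKM in controls 1 to 5 and the vitamin D receptor Vdr 50.4, 115, 56.9, 30.5 and 119. Pparg (21.3, 63.7, 45.2, 11.2 and 67.9), a sensor of fatty acids, was highest in controls 2 and 5. Esrra, a regulator of mitochondrial genes, averaged 92.9 ± 32.6. The estrogen and progesterone receptors were near 0, with Esr1 at 0.197 and Pgr at 0.0285, and Nr0b1 and Rxrg were undetected.

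Cytokine receptors passed 1 FPKM for 22 of 38 genes. The interferon gamma receptor chains Ifngr1 (76.6, 241, 175, 73.4 and 251 FPKM in controls 1 to 5) and Ifngr2 (77.98 ± 30.3) led, followed by Ltbr (53.6 ± 14.6, overlapping Scnn1a), Il17rc (50.3 ± 23.1) and the TNF receptor Tnfrsf1a (34.03 ± 5.17). Il22ra1 (7.22 ± 1.66), through which interleukin 22 acts on epithelium, was low. Chains typical of lymphocytes, Il2ra (0.0419) and Il2rb (0.0209), were near 0.

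Receptors of microbial patterns were expressed for 16 of 27 genes. Nlrp6, an inflammasome sensor of gut epithelium, read 34.1, 152, 90.5, 26.1 and 142 FPKM in controls 1 to 5. The Naip genes, which sense flagellin and secretion systems, gave Naip1 27.3 ± 10.8, Naip2 18.1 ± 2.304 and Naip6 18.04 ± 5.67, and reads may be split between these close copies. Nlrp9b, a sensor of viral RNA in gut epithelium, averaged 14.2 ± 11.2. Toll-like receptors were low, trace or undetected: Tlr2 was at 9.07 ± 8.598, Tlr4, the receptor of lipopolysaccharide, at 4.47, 2.43, 2.86, 3.82 and 2.23 over the 5 libraries, and the flagellin receptor Tlr5 at 0.429, 1.22, 0.979, 0.412 and 1.13. Tlr9 and Tlr11 were undetected.

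Receptors of hormones and transmitters were mostly trace, as 14 of 76 reached 1 FPKM and 7 were undetected (Adrb1, Chrm2, Chrm5, Drd2, Lpar3, Tacr1 and Tacr2). Gucy2c, the guanylin receptor, read 55.5, 58.5, 52.2, 46.2 and 60.5 FPKM in controls 1 to 5, and F2rl1 (PAR2), a receptor cut by proteases, read 27.8, 28.1, 33.3, 30.6 and 31.8. Both were even, with coefficients of variation of 0.103 and 0.0778, against 0.225 and 0.283 by TPM. Vipr1 (21.3 ± 6.29), Adra2a (19.3 ± 19.4) and Lpar6 (9.398 ± 1.64) followed. Of 23 receptors of nutrients and bacterial metabolites 5 passed: Gprc5a read 74.96, 188, 148, 150.5 and 221, the long-chain fatty acid receptor Ffar4 averaged 14.6 ± 5.24, Gpr160 7.68 ± 5.88, Gpr35 2.32 ± 0.260 and the short-chain fatty acid receptor Ffar2 1.67 ± 1.33. Hcar1 and Sucnr1 were undetected. The sensory receptor families set the lower end: 855 of 1105 olfactory, 268 of 353 vomeronasal and 30 of 35 bitter taste receptor genes were undetected, and Olfr78 alone among them reached 1 FPKM (1.97 ± 0.975). The next were Olfr165 (0.628), Olfr1425 (0.411), Olfr653 (0.330) and Olfr920 (0.307). Of the vomeronasal genes Vmn1r24 (0.497), Vmn2r29 (0.422), Vmn1r12 (0.104), Vmn2r25 (0.102) and Vmn1r193 (0.0723) were highest. All 5 bitter taste genes with a count, Tas2r106, Tas2r108, Tas2r135, Tas2r138 and Tas2r115, were at 0.0596 or less. The first undetected members in name order were Olfr10, Olfr1000, Olfr1002, Olfr1006, Olfr1008, Olfr1009, Vmn1r1, Vmn1r10, Vmn1r100, Vmn1r101, Vmn1r103, Vmn1r104, and Tas2r102, Tas2r103, Tas2r104, Tas2r105, Tas2r107, Tas2r109.

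Transcription factors of intestinal identity were expressed for 32 of 43 genes, 10 of them abundant, with a median of 12.3 FPKM. Elf3, an ETS factor of epithelia, read 191, 304, 275, 134 and 314 FPKM in controls 1 to 5. The caudal factors that set intestinal fate read 141, 234, 137, 126 and 225 for Cdx1 and 182, 174, 169.8, 59.3 and 148 for Cdx2. Cdx2 was thus even in 4 libraries and lower in control 4, while Cdx1 was highest in controls 2 and 5 by FPKM and TMM but nearly even by TPM (coefficient of variation 0.0945). Id1, an inhibitor of bHLH factors, averaged 115 ± 58.7. Klf5, a factor of dividing crypt cells, read 175, 50.7, 105, 126 and 46.8, and Klf4, a factor of differentiated cells, was nearly even at 35.8, 37.1, 37.3, 29.5 and 36.7, with its lowest value in control 4 by FPKM and in control 2 by TPM. Gata6 (19.7 ± 3.28) was the only Gata gene at 1 FPKM or more. Gata4, which marks the proximal small intestine, averaged 0.897 ± 0.814, and Gata3 (0.354), Gata5 (0.0424) and Gata2 (0.0339) were below it. Sox9, a crypt factor, read 21.9, 3.14, 8.41, 23.7 and 2.43. Sox2, a factor of the foregut, was undetected. Hes1, the Notch effector, averaged 53.5 ± 7.75 and was even, beside Hes6 (33.8 ± 3.91), Myc (20.4 ± 7.99) and the Wnt effector Tcf7l2 (12.3 ± 4.297), and 12 of 24 genes of that list reached 1 FPKM.

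Of 45 Fox genes 17 reached 1 FPKM, led by Foxd2 (43.8 ± 19.99), Foxq1 (28.8 ± 32.6), Foxp4 (25.3 ± 5.597), the pioneer factor Foxa1 (23.7 ± 8.75) and Foxo3 (15.96 ± 1.83), and 10 were undetected: Foxb1, Foxb2, Foxd4, Foxe1, Foxf2, Foxi1, Foxi3, Foxr1, Foxr2 and Foxs1. Of 17 Klf genes 11 passed, with Klf3 (34.7 ± 4.63), Klf6 (32.2 ± 6.94) and Klf10 (15.4 ± 7.45) after Klf5 and Klf4. Of 19 Sox genes 4 passed: Sox4 (14.3 ± 10.4), Sox9, Sox13 (11.1 ± 5.04) and Sox21 (3.81 ± 2.997), Sox12 followed at 0.437, and Sox3 was undetected like Sox2.

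Hox genes, which record position along the body axis, showed a posterior pattern carried by the A and B clusters. Hoxb13, the most posterior gene of its cluster, was the most abundant at 86.7, 162, 99.8, 90.2 and 146 FPKM in controls 1 to 5, and was nearly even by TPM (coefficient of variation 0.0689). Hoxb6 read 48.8, 67.2, 44.8, 9.26 and 45.7 and Hoxb9 29.9, 29.4, 33.6, 17.99 and 26.96, and both had their lowest value in control 4, although by TPM the lowest for Hoxb9 was control 5. Hoxa13 read 27.4, 11.5, 16.4, 18.9 and 18.1 and Hoxa9 averaged 12.9 ± 4.88. The B cluster held 74.5% of the summed mean FPKM of all 39 Hox genes and the A cluster 23.2%. In the A cluster 10 of 11 genes reached 1 FPKM and in the B cluster 8 of 10, where the anterior Hoxb1 (0.542) and Hoxb2 (0.383) did not. None of 9 genes of the C cluster did, with Hoxc8 the highest at 0.230 and Hoxc9 undetected. In the D cluster only Hoxd13 (4.61, 3.15, 3.06, 8.21 and 1.13) and Hoxd4 (1.15 ± 0.416) reached 1 FPKM, and Hoxd12 was undetected. Neighbouring Hox genes and their antisense RNAs overlap, so single values may include reads of both. Hoxa11os, antisense to Hoxa11 (5.95 ± 2.87), was at 72.4 ± 16.96.

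**Figure D4:**
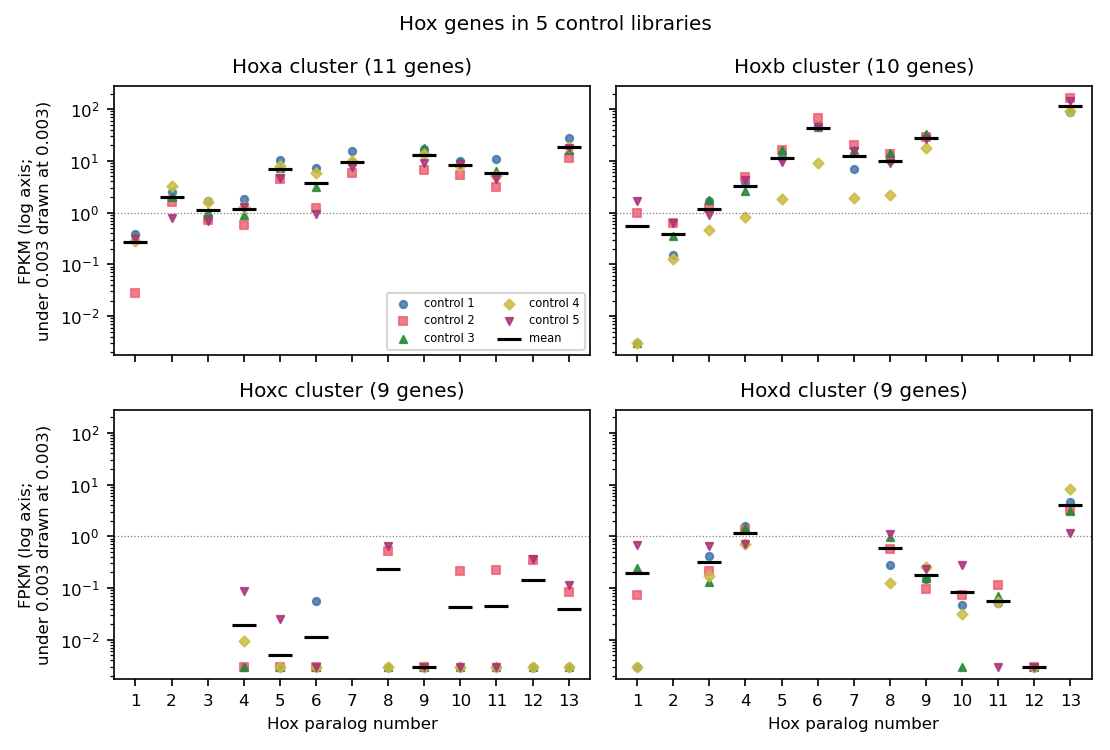
FPKM (y axis, log scale) of the Hox genes in each of the 5 control libraries (symbols and colours) by paralog number (x axis), in 1 panel per cluster, with the mean as a black dash and values under 0.003, including 0, drawn at 0.003. Hoxb13 lay between 86.7 and 162 FPKM, while every gene of the C cluster stayed under the dotted line at 1 FPKM in all libraries.

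No pair of the 5 libraries was close enough to be 1 library deposited again. Chi-square per degree of freedom was taken over genes with at least 20 counts in a pair of libraries. It was 7.68 for controls 2 and 5 and 44.2 to 324 for the other 9 pairs. Counting error alone would give about 1, and a copied library less. Equal counts were found in 0.418 to 1.96% of these genes, the most for controls 2 and 5. Across 10391 expressed protein-coding genes, which are not independent replicates, Spearman's rho of FPKM was 0.993 between controls 2 and 5, 0.969 between controls 1 and 4 and 0.826 between controls 4 and 5, the lowest of the 10 pairs. Among 4896 protein-coding genes at 10 FPKM or more, the median coefficient of variation was 0.266 (0.259 on the TMM scale and 0.283 as TPM). In 2106 of these genes (43.01%) the highest library was over 2 times the lowest. Control 4 was the lowest library for 1989 of them by FPKM and the highest for 862, but the highest for 1823 and the lowest for 931 by TPM. Library measures moved in part with these patterns. Controls 1 to 5 had 21404, 27218, 21172, 22108 and 25725 genes with at least 1 count, 2.74, 4.56, 3.404, 3.14 and 4.78% of counts from mitochondrial genes and a count-weighted mean gene length of 4554, 3451, 4009.5, 4556 and 3500.0 bases. Of 5825 genes with counts in 1 library alone, 2622 were found in control 2 and 1663 in control 5. The part of these measures in the differences between libraries was not tested.

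**Figure D5:**
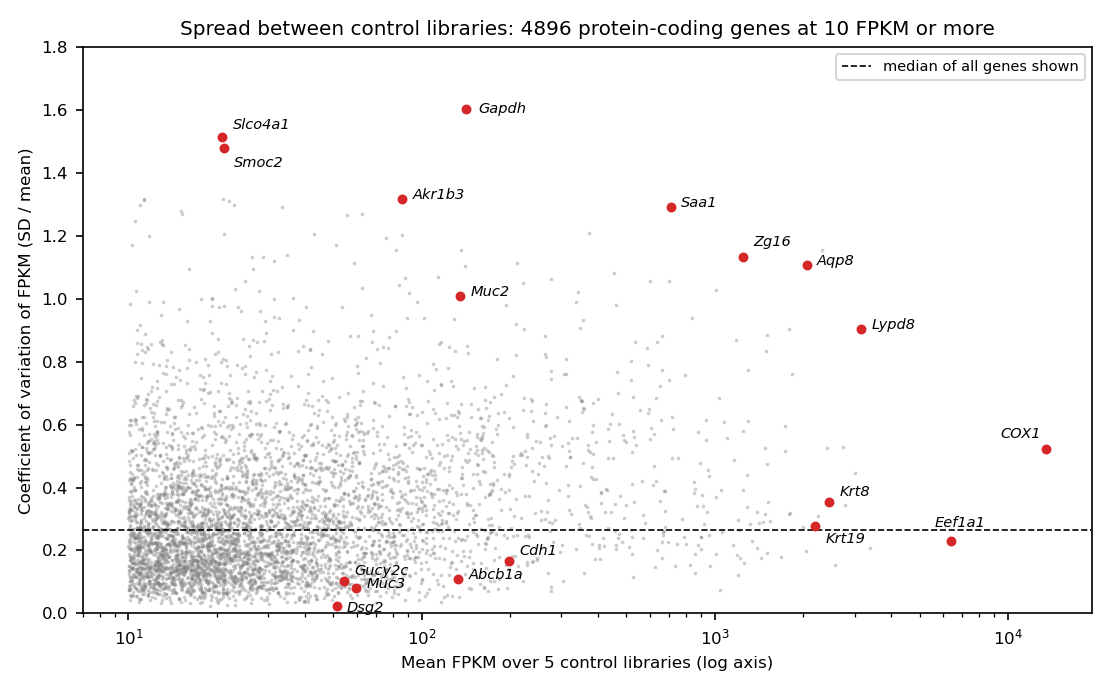
Coefficient of variation of FPKM over the 5 control libraries (y axis, SD divided by mean) against mean FPKM (x axis, log scale) for 4896 protein-coding genes at 10 FPKM or more, with some genes of the text in red and the median of all as a dashed line. Gapdh had the highest value at 1.603 and Dsg2 the lowest at 0.0233.

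Gapdh, a glycolytic enzyme often used as a reference gene, was the least even of the genes at 10 FPKM or more, at 111, 31.6, 18.9, 5.61 and 541 FPKM in controls 1 to 5 and a coefficient of variation of 1.603. Its mean of 141 ± 227 was 41.7 ± 47.3 (n = 4) without control 5, and since the mouse genome holds many processed copies of Gapdh, the value is uncertain. Slco4a1 (1.51), Smoc2 (1.48) and the retinol dehydrogenase Rdh7 (1.32) came next by coefficient of variation. Smoc2 averaged 21.1 ± 31.2, or 7.33 ± 5.58 (n = 4) without control 4. Akr1b3, an aldose reductase, averaged 85.8 ± 113, or 35.4 ± 6.79 (n = 4) without control 1. Ppy, the pancreatic polypeptide gene, was 0.440, 47.9, 2.24, 0 and 54.1, with a mean of 12.7 ± 23.5 (n = 4) without control 5, and Rdh7 was 0.0273, 24.2, 1.55, 0.110 and 30.6, with 6.47 ± 11.8 (n = 4) without the same library. B3gnt7, a glycan-extending enzyme, averaged 10.96 ± 14.2, or 4.93 ± 5.16 (n = 4) without control 4. Nts, Lor and Ccl6 completed the 10 least even genes. Control 1 was thus the highest library for Slco4a1 and Akr1b3, control 4 for Smoc2, Lor, Ccl6 and B3gnt7, and control 5 for Gapdh, Ppy and Rdh7. At the other end stood Dsg2, a desmosomal cadherin, at 51.4, 49.5, 52.00, 52.6 and 51.1 FPKM, Tollip (19.1 ± 0.464), the proton pump subunit Atp6v0a1 (23.1 ± 0.628), Cyb5r4 (21.6 ± 0.610), Atad3a (30.3 ± 0.945), Csnk1g3 (12.9 ± 0.409), Cdc25a (13.99 ± 0.446), the glycosylation subunit Stt3b (69.9 ± 2.25), Cisd2 (20.2 ± 0.672) and Pip5k1b (26.3 ± 0.884). Their coefficients of variation were 0.0233 to 0.0337 by FPKM and 0.0488 to 0.0725 on the TMM scale. By TPM they were 0.267 to 0.311, near the median of all genes, so the evenness of these 10 depends on the scale. The highest library of each of the 10 least even genes was the same on all 3 scales. Positions on GRCm39 per the deposited table are chr11:58269858-58281367 for Lypd8, chr7:123061517-123067226 for Aqp8, chr15:101905146-101912777 for Krt8, chr7:141276583-141308428 for Muc2, chr10:115286219-115423685 for Lgr5, chr11:96085142-96087436 for Hoxb13 and chr6:125138815-125143430 for Gapdh.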

How the data were processed

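The authors deposited 2 tables over 47131 genes, 1 of raw counts and 1 of FPKM. The submitters' processing notes name Trimmomatic 0.39 for trimming, HISAT2 2.2.1 and GRCm39 for alignment, and featureCounts (Subread 2.0.8) for counting. Annotation release, strand setting and the handling of multiply mapped reads are in none of the sources used here. The FPKM values that the authors deposited equal counts times a constant per library over gene length, the constant resting on 0.870 to 1.28 times the library's count total. Depth per library was 16546263 to 21947414 counts.

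Columns were mapped to samples by library name. Levels were the mean over the 5 controls, with SD, coefficient of variation and range; the group was not compared with another, so no test between groups was run. Single libraries were set against the other 4 by Dixon's criterion, and pairs of libraries by chi-square of their counts, to look for duplicates. TMM-scaled CPM (edgeR 4.0.16, R 4.3.3) and TPM from counts and gene lengths served as other scales. The 800 rows with an identifier but no name took 0.154 to 0.264% of counts, stayed in all gene totals and are not named. Summaries were tested on simulated data in which all libraries shared a profile, apart from genes raised in a single library. That simulation did not model the spread between the real libraries.

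The members and the 41 gene lists were chosen with earlier results of these data known. Of 1013 listed entries 1009 were found, 2 by an older symbol. The 15 families were set by name patterns over protein-coding genes, and these patterns were narrowed after the values were seen. By rule, the text names the 30 most abundant protein-coding genes, the 5 most abundant and the undetected members of each list, the first 2 markers of each lineage and the 10 most and least even genes at 10 FPKM or more. Further genes, the 119 genes of which all library values were examined, and the promoter motifs were chosen after their values were seen. Overlapping genes are named where they hold over 10% of the count. Alternatives were each library left out, other scales, other thresholds, the median and a filter on low counts (filterByExpr of edgeR). The spread by TPM and the order of libraries by TMM and TPM were added after seeing the data. Protein sequences were not used here, and some genes that the rule would name are not reported here.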

Additional observations from a re-analysis of the deposited data

Results flagged for a closer look

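In a group of 5 libraries, 1 library was taken to stand apart when its gap to the nearest other was over 0.71 of the whole range (Dixon's 95% value). Of 126 values examined, 13 met this, 9 of them in control 4, 3 in control 1 and 1 in control 5. Chance alone sets apart about 1 in 20 such groups, and genes that move together are not independent. Many of these genes were chosen after their values were seen, some for their spread. The number set apart therefore cannot be judged against that rate.

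Control 4 was the highest library for Mptx1 (231 FPKM), Smoc2 (76.3), Clu (49.7) and Egfr (4.01). It was also the highest for 2 genes near 0, Olfm4 (0.129) and Fabp1 (0.173). Control 4 was the lowest for Cdx2 (59.3), Slc16a1 (56.0) and Klf4 (29.5), although by TPM control 2 was the lowest for Slc16a1 and Klf4. Control 1 was the highest for Slco4a1 (77.5), Krt4 (32.1) and Akr1b3 (287). Control 5 was the highest for Gapdh (541). The values of all 5 libraries for most of these genes stand with the gene in the results. No cause was tested.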

How the results depend on the processing

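Of 441 recomputed main counts and summaries, 422 stayed within 1.5 times the value reported and 19 moved. For the recomputed values outside this set, 609 stayed the same and 105 moved. TPM gave larger numbers than FPKM by construction, since its sum per library is fixed: over 111 genes given in full, the mean TPM was 1.68 to 2.97 times the mean FPKM, so 7973 genes reached 10 and 2910 reached 50. On that scale, genes at 1 or more were 6 for tuft, 9 for squamous, 1 for endothelial, 5 for immune, 2 for neuronal and glial, 8 for Notch, 15 for Kcn, 2 for Gata and 2 for olfactory receptor genes. A threshold of 50 FPKM passed in every library left 891 genes, and the median over libraries gave 1 endothelial gene at 1 FPKM or more.

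Leaving out each library in turn gave 11892 to 12087 genes at 1 FPKM or more, 1324 to 1465 at 50 or more, and 14842 to 17088 undetected genes, the most without control 2. The members at 1 FPKM or more were 3 to 5 for tuft, 0 to 1 for gastric (0 without control 5), 0 to 1 for endothelial (1 without control 1) and 1 to 2 for Gata genes (2 without control 1 or control 4). The median coefficient of variation was 0.244 to 0.288. Undetected genes numbered 20385 when 3 or fewer counts over the 5 libraries were allowed. Of 111 genes given in full at 1 FPKM or more, 19 had a mean that fell by over 1.5 times without 1 library, 10 of them without control 4. Depth limits the low end: over the genes given in full, 3 counts in a library correspond to 0.00883 to 0.530 FPKM, depending on gene length. No paired analysis was possible because the control libraries form 1 group and no groups were compared.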
